A study of Mus musculus with 4 samples.

Results

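The genes of glycolysis, of pyruvate entry into mitochondria, of the citric acid cycle and of the malate-aspartate shuttle were examined in RNA of mouse pancreatic islets. They were taken by symbol as a fixed list of 35 genes, and 36 of the 54532 rows of the expression table carried one of these symbols, because 2 rows are named Aldoa. The islets came from male C57BL/6 mice of 10 to 12 weeks. Of 4 libraries, 2 were of wild-type mice (wild type 1 and 2) and 2 of mice with a miR-29a/b-1 transgene that overexpresses these microRNAs in pancreatic beta cells (transgenic 1 and 2). The promoter of the transgene, and whether a library holds 1 mouse or several, are not given in the sources used here, so p-values here measure how far these libraries differ among themselves, and that may be technical. Levels are FPKM, reads scaled to gene length and library size, so that genes can be compared per length. Levels come in the order library 1, then library 2, first for the wild type and then, after "against", for the transgenic islets.

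Glycolysis splits glucose into pyruvate in the cytosol. Pyruvate then enters mitochondria, where pyruvate dehydrogenase turns it into acetyl-CoA and pyruvate carboxylase turns it into oxaloacetate, and the citric acid cycle oxidises the acetyl group. In beta cells this route couples blood glucose to ATP and so to insulin secretion. Beta cells are known for high pyruvate carboxylase, for little lactate dehydrogenase A, and for the malate-aspartate shuttle that carries cytosolic reducing equivalents into mitochondria. The microRNAs of the miR-29 family pair through their seed with messenger RNAs and lower their levels or translation.

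The mature sequences are shown because they define which messages the transgene's products can pair with. In RefSeq sequences on GRCm38.p6, with the seed (bases 2 to 8) in capitals, they share 1 seed:
miR-29a-3p: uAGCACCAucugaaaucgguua
miR-29b-3p: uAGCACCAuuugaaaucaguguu
miR-29a-3p lies on chromosome 6 at 31062673 to 31062694 and the copy of miR-29b-3p in the transgene's locus of origin at 31063025 to 31063047, both on the minus strand.

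The 7 bases that pair with this seed (TGGTGCT, searched on the sense strand) occur in the longest annotated 3′ UTR of 2 of the 36 rows (5.56%), Dlat and Fh1, against 16.8% of the 10723 genes compared that have a 3′ UTR of at least 50 bases. The median 3′ UTR was 892.5 bases for the members and 1365 for those genes. Both sites follow, with the pairing bases in capitals, because they are the only matches among the members:
Dlat: cccagaacaggcaccTGGTGCTg
Fh1: aatagtgttaaggatTGGTGCTa
Dlat encodes the acetyltransferase core of pyruvate dehydrogenase, and its site starts at base 910 of the 3′ UTR. Dlat lay at 8.75 and 11.3 FPKM in wild-type islets against 10.1 and 10.6 in transgenic ones. Fh1 encodes fumarase, its site starts at base 641, and it lay at 22.6 and 21.3 against 22.9 and 21.2. In both genes the genotypes overlapped, with log2 fold changes of 0.05 ± 0.17 for Dlat and 0.00 ± 0.14 for Fh1 (standard error, n = 2 per group). The sign turned with the library number in both, at 0.19 in number 1 and -0.08 in number 2 for Dlat and at 0.02 and -0.01 for Fh1. A match describes these letters only.

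Reads recovered from the FPKM summed to between 21670854 and 27080907 per library. Both genotypes have a library numbered 1 and a library numbered 2, and libraries of the same number lay closer together in many genes than those of the same genotype. Of the 10 beta cell markers all were detected, and the insulin gene Ins2 took 20.1% and 26.6% of reads in wild-type islets against 12.8% and 25.5% in transgenic ones. The 14 acinar markers, genes of the exocrine cells around islets, summed to 4941 and 1032 FPKM in wild-type islets against 6584 and 1777 in transgenic ones, and none was at 0 in all libraries. In bulk RNA, fewer cells of a type and less RNA per cell cannot be told apart.

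The members together took 0.368% and 0.341% of the reads in wild-type islets against 0.413% and 0.348% in transgenic ones. Shares were also taken with Ins1, Ins2 and Iapp, 3 abundant beta cell genes, left out of the total. In the same order of libraries they were 0.504% (95% exact binomial interval 0.501 to 0.508), 0.513% (0.509 to 0.516), 0.512% (0.509 to 0.515) and 0.511% (0.507 to 0.515). These intervals cover counting error only. The range of the shares was thus 0.341% to 0.413% of all reads and 0.504% to 0.513% without these 3 genes, with wild type 1 the lowest of the latter.

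Several glycolytic genes have near-identical copies, which limits what their values mean. For each member, the share of 50-base windows of its principal annotated transcript that also occur in a gene elsewhere in the annotation was counted. Gapdh, the dehydrogenase that makes the first NADH of glycolysis, shared 82.5% of its windows with 230 other genes, 215 of them pseudogenes. Gapdh was listed at 4.18 and 1.75 FPKM in wild-type islets against 6.42 and 1.91 in transgenic ones. That is far below the other single-gene steps of glycolysis, and how reads with several matches were treated is not given, so the level of Gapdh is uncertain. Eno1 shared 72.2% of its windows, most of them with Eno1b, Pgk1 68.0%, Got2 42.0% and Pgam1 41.5%. Me1 shared 33.4%, Pkm 30.5%, Pdhb 30.3%, Suclg2 21.8%, Gpi1 19.6% and Aldoa 13.9%. The levels of all these genes carry the same limit. It also holds where Me1, Suclg2 and Pdhb are set below against Me2, Sucla2 and Pcx, which shared none elsewhere. Windows were also shared with an annotated gene that overlaps the member's own locus: 17.1% for Pfkp (with Pitrm1), 16.5% for Pdha1 (with Map3k15), 9.47% for Got2, 7.73% for Me3, 7.58% for Gpi1 and 5.04% for Pkm. The strand setting is not given, so reads there cannot be told apart. In all, 14 of the 36 rows shared at least 1% with a gene elsewhere, and 18 shared none elsewhere, among them Pfkm, Pcx, Ogdh, Idh2, Mdh1, Mdh2 and Got1.

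**Figure D1:**
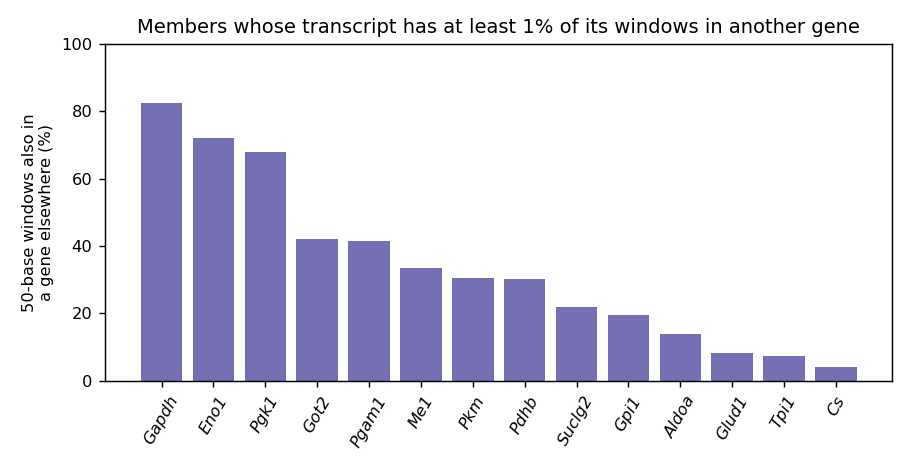
Share of 50-base windows of each member's principal transcript that also occur in a gene elsewhere in the annotation (vertical axis, percent), for the 14 members at 1% or more. Gapdh (82.5%), Eno1 (72.2%) and Pgk1 (68.0%) stand highest.

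In the preparatory steps of glycolysis, which consume ATP and end in triose phosphates, Aldoa was by far the highest gene. Aldoa, the aldolase that splits fructose bisphosphate, lay at 157 and 98.6 FPKM in wild-type islets against 156 and 100.04 in transgenic ones. It held 98.3% ± 0.73 (SD, n = 4) of the FPKM of Aldoa and Aldoc together, with Aldoc, the brain type, at 1.49 to 2.53 FPKM. The second Aldoa row (ENSMUSG00000114515, chromosome 7, 126800790 to 126809108) held 20 to 31 reads per library and adds little. Tpi1, triose phosphate isomerase, lay at 36.9 and 37.8 FPKM against 36.5 and 40.3, and Gpi1, glucose phosphate isomerase, at 16.7 and 13.4 against 17.3 and 14.1. The values of Aldoa and Gpi1 were thus ordered by library number, those numbered 1 being higher.

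Phosphofructokinase, the committed step, was mostly of the muscle type. Pfkm lay at 14.6 and 16.1 FPKM in wild-type islets against 18.1 and 17.997 in transgenic ones. Pfkl, the liver type, lay at 5.78 and 7.27 against 7.68 and 7.74, and Pfkp, the platelet type, at 2.46 and 2.40 against 2.61 and 2.39. The order Pfkm, Pfkl, Pfkp held in every library, and Pfkm made up 63.6% ± 0.71 (SD, n = 4) of the family's FPKM. The margin depends on the gene length by which reads are divided. The table gives Pfkp a length of 13401 bases and Pfkm 3340, and per length of the principal annotated transcript, a setting chosen after seeing the data, the shares were 48.3% for Pfkm, 31.7% for Pfkl and 20.0% for Pfkp.

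In the payoff steps, which yield ATP and NADH, Pkm led. Pkm, the pyruvate kinase gene of most tissues, lay at 115 and 164 FPKM in wild-type islets against 122 and 164 in transgenic ones, and held 97.5% ± 0.35 of the FPKM of Pkm and Pklr, the liver and red cell gene. Gene-level values do not tell the splice forms of Pkm apart. Pgam1, a phosphoglycerate mutase, lay at 51.8 and 35.5 against 54.5 and 38.5 FPKM and held 97.4% ± 0.30 of its family. Pgk1, which makes the first ATP of this phase, lay at 46.2 and 42.1 against 41.0 and 36.6. Of the enolases, Eno1 lay at 27.8 and 28.7 against 25.4 and 29.6, Eno3 (the muscle type) at 12.7 and 11.6 against 16.2 and 11.9, and Eno2 (the neuronal type) at 8.73 and 8.74 against 10.2 and 8.11. Eno1 led in every library with 55.9% ± 4.82 of the family, and with 71.4% per length of the principal transcript. The places of Eno3 and Eno2 depended on the length used, with shares of 26.2% and 17.9% on the table's lengths and of 14.1% and 14.6% on the transcript lengths.

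**Figure D2:**
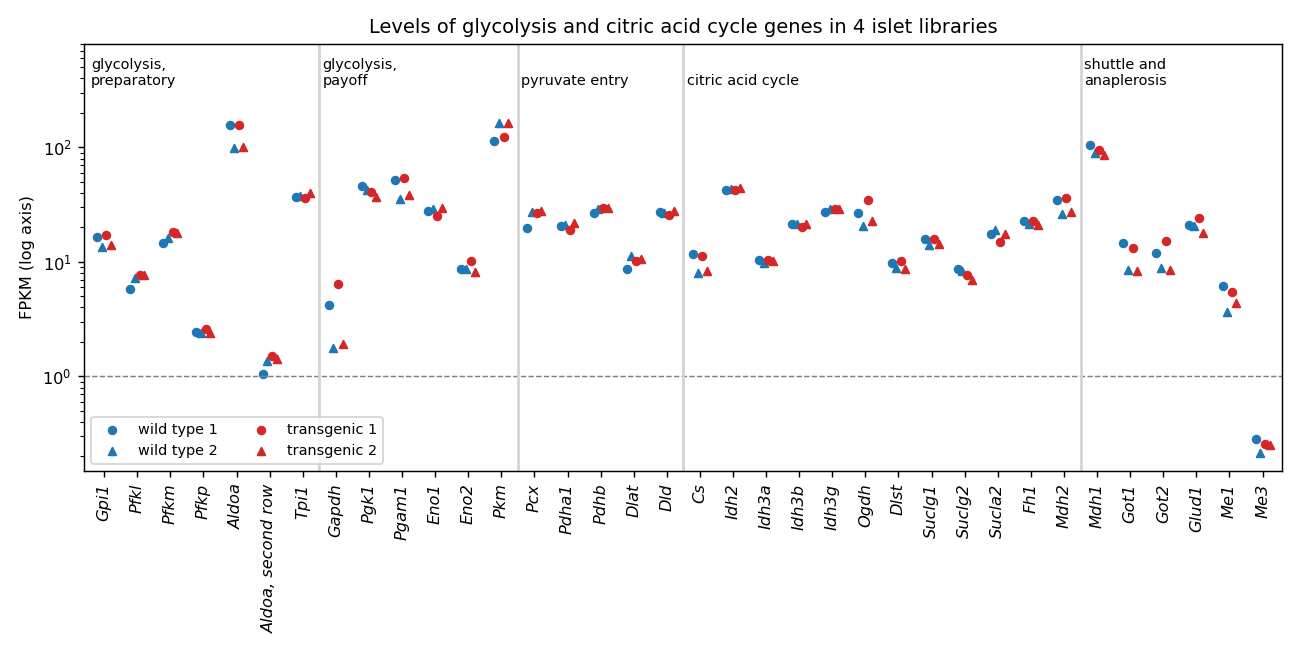
FPKM of the 36 rows in each of the 4 libraries (vertical axis, logarithmic), ordered by step, with circles for number 1 and triangles for number 2 and with blue for wild type and red for transgenic. Aldoa, Pkm and Mdh1 stand highest, Me3 lies below the 1 FPKM needed to be compared (dashed line), and circles and triangles part more often than the colours do.

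At the entry to mitochondria, Pcx lay between subunits of pyruvate dehydrogenase in level. Pcx, pyruvate carboxylase, lay at 19.8 and 27.3 FPKM in wild-type islets against 26.6 and 27.7 in transgenic ones. Pdha1, the catalytic alpha subunit of pyruvate dehydrogenase, lay at 20.5 and 21.1 against 19.1 and 22.05, Pdhb, its beta subunit, at 26.9 and 29.1 against 29.7 and 29.3, and Dld, the dihydrolipoamide dehydrogenase shared with the oxoglutarate complex, at 27.2 and 26.9 against 25.8 and 27.99. The ratio of Pcx to Pdha1 was 0.968 and 1.29 in wild-type islets against 1.39 and 1.26 in transgenic ones, a mean log2 ratio of 0.28 ± 0.23 (SD, n = 4). Pcx was the lower of the pair in wild type 1 and the higher in the other 3 libraries. Against Pdhb, Pcx was lower in 4 of 4 libraries, with ratios of 0.737 to 0.946. The size of both ratios depends on the gene length used. The table gives 4637 bases for Pcx, 3734 for Pdha1 and 3861 for Pdhb. Their principal transcripts have 4061, 2848 and 1513 bases, so near-equal levels of Pcx and Pdhb are not read from these values. Dlat, at the levels given above of 8.75 to 11.3 FPKM, was the lowest of the 5 genes of this step.

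In the citric acid cycle the members' levels ran from 6.97 FPKM for Suclg2 to 44.2 for Idh2. Idh2, the mitochondrial NADP-linked isocitrate dehydrogenase, was the most even member, with 42.4 and 43.1 FPKM against 42.6 and 44.2, a coefficient of variation of 1.82% over the 4 libraries. It held 83.0% ± 5.66 of the FPKM of Idh1 and Idh2. The NAD-linked enzyme is built of 3 kinds of subunit, and their genes kept a fixed order in every library: Idh3g at 27.5 to 29.2 FPKM, Idh3b at 20.3 to 21.5 and Idh3a, the catalytic subunit, at 9.82 to 10.3. The log2 ratio of Idh3g to Idh3a was 1.496 ± 0.066 and that of Idh3b to Idh3a 1.053 ± 0.066 (SD, n = 4). Ogdh, the first component of the oxoglutarate complex, was less even, with 26.9 and 20.5 FPKM in wild-type islets against 34.4 and 22.9 in transgenic ones. Dlst, the core of the same complex, lay at 9.74 and 8.78 against 10.1 and 8.67, Cs, citrate synthase, at 11.7 and 8.07 against 11.2 and 8.38, and Suclg1, the alpha subunit of succinyl-CoA ligase, at 15.9 and 14.1 against 15.98 and 14.4.

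Succinyl-CoA ligase gains its nucleotide preference from its beta subunit, Sucla2 for ADP and Suclg2 for GDP. Sucla2 lay at 17.7 and 19.1 FPKM in wild-type islets against 14.9 and 17.6 in transgenic ones. Suclg2 lay at 8.72 and 8.29 against 7.74 and 6.97. The ADP-linked gene was higher in every library, with 68.5% ± 2.62 of their FPKM (SD, n = 4).

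Among the genes of the shuttle and of anaplerosis, Mdh1 led. Mdh1, the cytosolic malate dehydrogenase, lay at 104 and 90.2 FPKM in wild-type islets against 94.4 and 85.7 in transgenic ones, the third highest member after Aldoa and Pkm. Mdh2, its mitochondrial partner, lay at 34.8 and 26.2 against 35.8 and 27.5, which leaves Mdh1 75.2% ± 2.06 of the pair. The aspartate aminotransferases Got1 (cytosolic) and Got2 (mitochondrial) lay at 14.7 and 8.49 against 13.1 and 8.30 FPKM and at 12.0 and 8.92 against 15.3 and 8.51. Neither led: Got1 was higher in 1 of 4 libraries, with a mean log2 ratio of -0.01 ± 0.22, while per length of the principal transcript Got2 held 60.8%. Glud1, glutamate dehydrogenase, lay at 20.997 and 20.5 against 24.4 and 17.997. Of the malic enzymes, Me1 (cytosolic) lay at 6.12 and 3.68 against 5.50 and 4.34, and Me3 (mitochondrial) at 0.286 and 0.216 against 0.255 and 0.254, on 78 to 100 reads per library. Me2, a mitochondrial malic enzyme outside the list, was higher than both in FPKM, at 7.73 and 8.26 against 7.32 and 9.60. It held 61.6% ± 7.22 of the family. That lead depends on the length used. Per length of the principal transcript the mean shares were 54.0% for Me2 and 40.2% for Me1. In reads Me1 exceeded Me2 in wild type 1 (562 against 453) and transgenic 1 (546 against 463), but not in the libraries numbered 2.

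**Figure D3:**
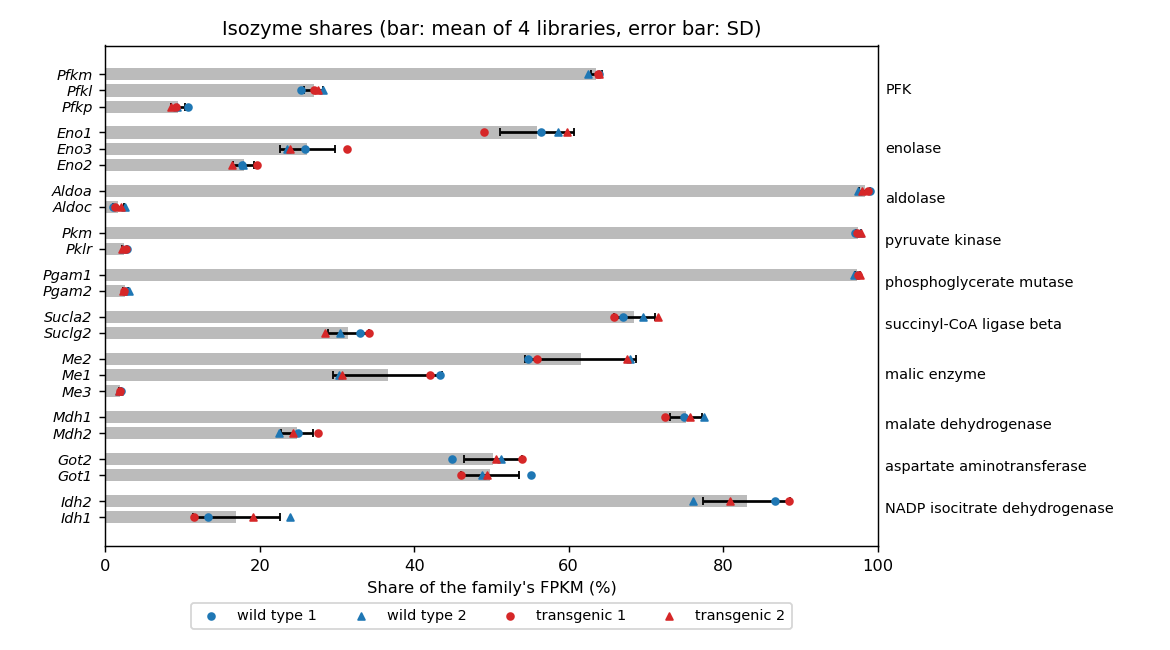
Share of each isozyme in the FPKM of its family (horizontal axis, percent), with bars for the mean and error bars for the SD of 4 libraries and points for each library. On the table's gene lengths, Pfkm, Eno1, Aldoa, Pkm, Pgam1, Sucla2, Me2, Mdh1 and Idh2 lead in every library, and Got1 and Got2 overlap.

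Genes outside the list complete the picture of islet isozymes. Ldha and Ldhb, the lactate dehydrogenases, lay at 2.44 to 2.81 and at 7.96 to 14.4 FPKM. On this scale Mdh1 was 32.1 to 42.7 times Ldha. The size of this ratio depends on the length used. The table gives Ldha 3310 bases and Mdh1 2567, while their principal transcripts have 1766 and 2122. Ldha shared 17.1% and Ldhb 27.0% of their windows with copies elsewhere. The monocarboxylate transporter gene Slc16a1, named after its values were seen, lay at 0.078 to 0.219 FPKM.

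Transgenic islets were compared with wild-type islets to see which of these genes differ with the miR-29 transgene. Genes with at least 1 FPKM in at least 2 libraries were compared (12716), which took in 35 of the 36 rows and left out Me3. In limma on log2(FPKM + 1), 0 of the 35 passed an adjusted p of 0.05 (Benjamini-Hochberg over all genes), against a background of 0.0% called higher and 0.0% lower among all genes. At an unadjusted p under 0.05 there were 0 members, against 0.653% of all genes, and voom in limma on the recovered reads called 0 genes, with 31 at an unadjusted p under 0.05. Members' log2 fold changes ran from -0.19 to 0.30 with a median of 0.03, beside 0.01 for all genes, and 24 of the 35 lay within 0.1 of 0. Their standard errors ran from 0.13 to 0.56 (n = 2 per group), so differences of this size were not detectable in this fit. The fit has no term for library number, so the split by number counts as spread in these errors. Fits with that term are given with the alternatives below.

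Both beta subunits of succinyl-CoA ligase, and Pgk1, were lower in both transgenic libraries than in both wild-type ones, while Pfkm, Pfkl, Pdhb and the second Aldoa row were higher. These 4 higher rows are 11.4% and the 3 lower rows 8.57% of the 35, against 12.2% and 9.03% of all genes whose genotypes do not overlap in these directions, so the members' shares are those of the background. Pfkm differed by 0.29 in number 1 and 0.15 in number 2 (log2 fold change 0.22 ± 0.14, limma adjusted p = 1.00). Pfkl differed by 0.36 and 0.08 (0.22 ± 0.15, limma adjusted p = 1.00). Pdhb differed by 0.14 and 0.01, and by -0.01 over all libraries when they were rescaled without Ins2, Ins1 and Iapp. Pgk1 differed by -0.17 and -0.20 (-0.18 ± 0.16), Suclg2 by -0.15 and -0.22 (-0.19 ± 0.13) Sucla2 by -0.23 and -0.11 (-0.17 ± 0.16) and Mdh1, whose genotypes overlap, by -0.14 and -0.07 (-0.11 ± 0.18), each with a limma adjusted p of 1.00.

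By number, 15 of the 35 were higher in the transgenic library of both numbers and 6 lower in both, which is 42.9% and 17.1%, against 33.5% and 27.4% of all genes. The largest differences lay in number 1. Gapdh differed by 0.52 in number 1 and 0.08 in number 2 (0.30 ± 0.56, limma adjusted p = 1.00), on 412 and 188 reads in wild-type islets against 684 and 166 in transgenic ones. Pcx differed by 0.41 and 0.02 (0.21 ± 0.20) and Ogdh by 0.34 and 0.16 (0.25 ± 0.27), with an adjusted p of 1.00 in limma for both. The acinar markers compared were also higher in the transgenic library of both numbers in 12 of 12 cases (median 0.44 in number 1 and 0.77 in number 2), and their part in these values was not tested.

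By step, the medians of the log2 fold changes were 0.06 for the preparatory steps of glycolysis (0.06 in number 1 and 0.07 in number 2), 0.05 for the payoff steps (0.08 and 0.02), 0.05 for pyruvate entry (0.14 and 0.02) and 0.02 for the citric acid cycle (0.01 and 0.02). For the shuttle and anaplerosis the median of the 5 pooled values was 0.01, while the medians within number 1 and number 2 were -0.13 and -0.06, so no direction can be read from it. Of 67 further genes of these pathways (other isozymes, succinate dehydrogenase, regulators of pyruvate dehydrogenase, carriers, lactate and pentose phosphate genes), 53 were compared and limma called 0, with 0 at an unadjusted p under 0.05. Their fold changes ran from -0.27 for Idh1 to 0.28 for Slc25a1, the mitochondrial citrate carrier, which lay at 24.9 and 24.7 FPKM against 34.5 and 26.6 and differed by 0.46 in number 1 and 0.10 in number 2. Of the mitochondrially encoded genes, the partners of the cycle in respiration, 8 of 13 were lower in both numbers. Their median was -0.25 (-0.25 in number 1 and -0.15 in number 2). Among all genes 27.4% were lower in both numbers, and limma called 0 of the 13. Levels ran widely, from 1.23 to 14.5 FPKM for mt-Atp8 to 5786 to 7902 for mt-Co1. Copies elsewhere were not counted for these genes, and a cause of the difference was not tested.

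**Figure D4:**
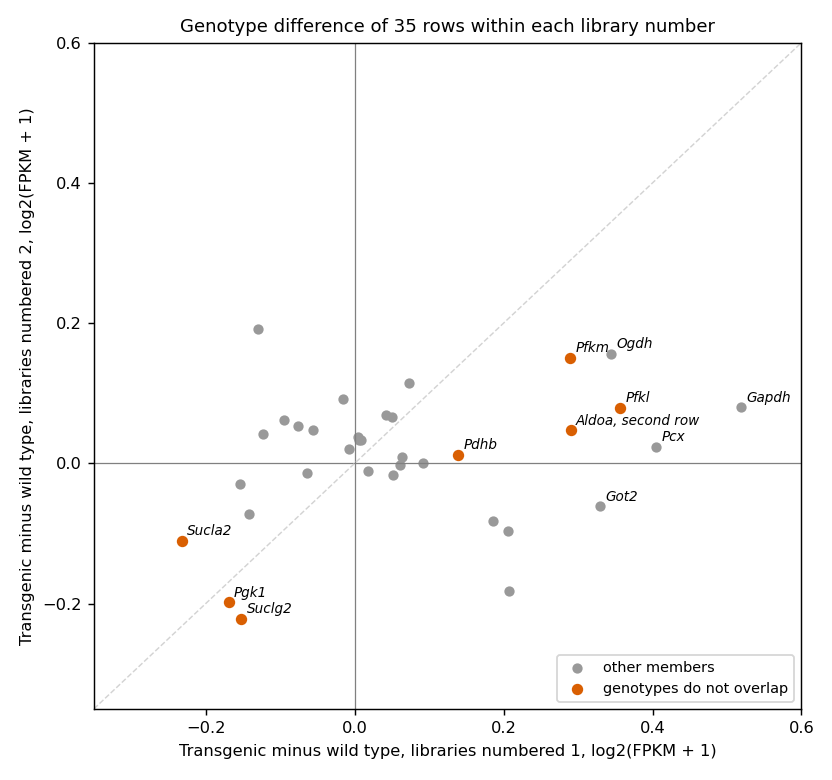
Transgenic minus wild type on the log2(FPKM + 1) scale for the 35 rows compared, in the libraries numbered 1 (horizontal) and numbered 2 (vertical), with the dashed line where both are equal. The 7 rows whose genotypes do not overlap are in orange, the largest differences lie in number 1, and limma called 0 of the 35.

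The libraries numbered 2 were then set against those numbered 1, since this split was larger than that of genotype. What the number stands for is not given, and it is no condition of the study. Of the 35 rows, 8 were lower (22.9%) and 1 was higher (2.86%) in number 2 in limma at an adjusted p under 0.05, against 10.6% lower and 10.1% higher among all genes. Values of the numbers did not overlap for 17 lower and 9 higher members (48.6% and 25.7%), against 32.4% and 34.4% of all genes. The members' median was -0.09, beside 0.01 for all genes. That direction rests on scaling: when libraries were rescaled without Ins2, Ins1 and Iapp, the median of all genes moved to 0.16 and that of the members to 0.08, so relative to all genes the members lay at -0.10 and -0.08. All genes called split into 1279 higher and 1351 lower as deposited, and into 2710 and 898 after that rescaling.

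The lower members were Aldoa, Gapdh and Pgam1 of glycolysis, Cs and Mdh2 of the cycle, and Got1, Got2 and Me1, which serve the exchange of malate, aspartate and pyruvate between cytosol and mitochondria. Aldoa fell by 0.66 in wild-type and 0.63 in transgenic islets (log2 fold change -0.65 ± 0.09, limma adjusted p = 0.0109, n = 2 per number). Got1 fell by 0.73 and 0.60 (-0.66 ± 0.10, limma adjusted p = 0.0117). Gapdh fell by 0.91 and 1.35 (-1.13 ± 0.18, limma adjusted p = 0.0144), within the limit given above for its copies. The calls of Aldoa, Got1 and Gapdh held when each library was left out in turn and after the rescaling, where the log2 fold changes were -0.46, -0.49 and -0.99. Each such fit sets 1 library against 2, takes the spread from those 2 and assumes that the lone library varies like them. Without the filter on low values, with 29257 genes tested, limma called 0 of the 9 (adjusted p of 0.0542 for Aldoa to 0.130 for Me1), and 11 of the 36 rows stood at an unadjusted p under 0.05.

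The other 6 calls ended in some of these fits. Got2 had a log2 fold change of -0.58 ± 0.13 (limma adjusted p = 0.0322), and its call ended without transgenic 1 and without transgenic 2, with an adjusted p of up to 0.0745. Pgam1 had -0.51 ± 0.10 (limma adjusted p = 0.0218), and its call ended without transgenic 1, without wild type 2 and after the rescaling (adjusted p of up to 0.136). Me1 had -0.44 ± 0.11 (limma adjusted p = 0.0394), and its call ended without transgenic 1, wild type 1 or wild type 2 and after the rescaling (adjusted p of up to 0.213). Cs had -0.44 ± 0.09 and Mdh2 -0.38 ± 0.09 (limma adjusted p = 0.0239 and 0.0364), and both calls ended without any 1 of the 4 libraries and after the rescaling.

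Pkm was the member called higher, from 115 and 122 FPKM in number 1 to 164 and 164 in number 2 (log2 fold change 0.46 ± 0.09, limma adjusted p = 0.0264). Its call ended without any 1 of the 4 libraries (adjusted p of 0.0524 to 0.152) and held after the rescaling, where its fold change was 0.65 and where Pcx (0.43, limma adjusted p = 0.0432) and Dlat (0.37, adjusted p = 0.0381) were called higher as well. Aldoa, of the preparatory steps, and Pkm, the last enzyme of glycolysis, thus lay on opposite sides of this split in both genotypes. After the rescaling, 2710 of the 12716 genes compared were called higher and the median of all genes was 0.16. The calls of Pcx and Dlat are therefore not read as a trait of pyruvate entry. On the scale as deposited, members with small differences between numbers included Idh2, Idh3a, Idh3b, Idh3g, Fh1 and Dld, with log2 fold changes of -0.09 to 0.05. Values of the numbers still did not overlap for Idh2, Idh3b and Idh3g (higher) and for Idh3a and Fh1 (lower). The rescaling moved the median of all members from -0.09 to 0.08, so this evenness depends on the scale.

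**Figure D5:**
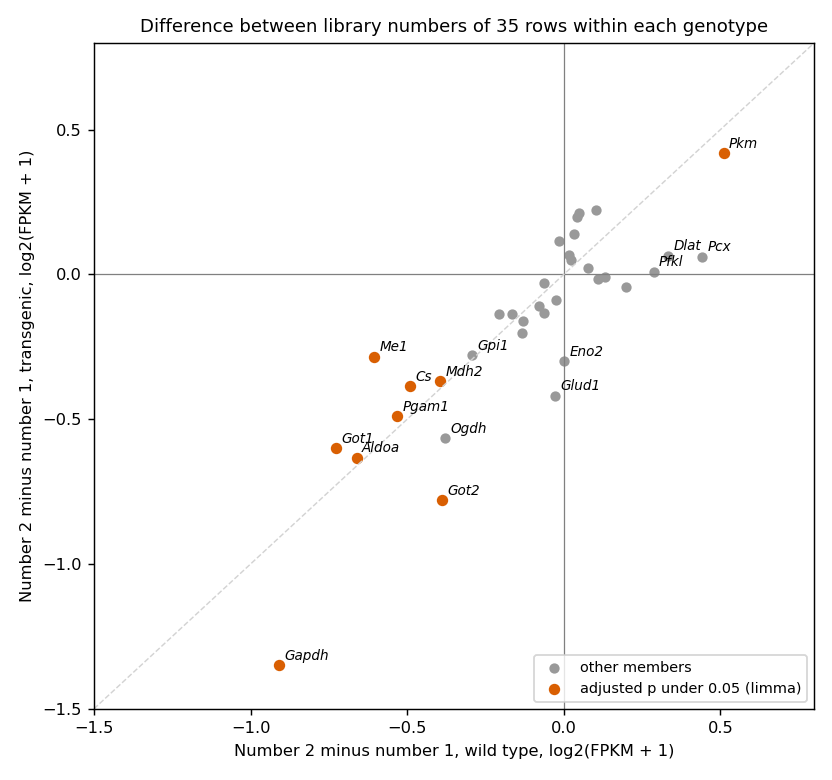
Number 2 minus number 1 on the log2(FPKM + 1) scale for the 35 rows compared, in wild type (horizontal) and transgenic islets (vertical), with the dashed line where both are equal. The 9 rows called by limma are in orange: Pkm lies in the upper right, and Aldoa, Gapdh, Pgam1, Cs, Mdh2, Got1, Got2 and Me1 in the lower left.

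Of the 53 further genes of these pathways compared, 7 were called higher and 1 was called lower in number 2. Among all genes compared, 10.1% were called higher and 10.6% lower. The higher calls lie near their share and the lower call lies below its share. Neither is read as a trait of these pathways. Their levels are given with number 1 before number 2, and the wild type first in each. Slc2a2, the glucose transporter of beta cells, lay at 57.3 and 61.3 FPKM in number 1 and at 146 and 122 in number 2 (log2 fold change 1.16, limma adjusted p = 0.00581). Idh1, the cytosolic partner of Idh2, lay at 6.50 and 5.54 against 13.5 and 10.5, Ldhb at 8.75 and 7.96 against 14.4 and 14.04, and Pdk4, a kinase that shuts off pyruvate dehydrogenase, at 4.08 and 3.52 against 7.79 and 7.78. G6pc2, the glucose-6-phosphatase of beta cells, Gapdhs and Minpp1 were the other 3, and Mpc1, a subunit of the mitochondrial pyruvate carrier, was the lower one, at 4.31 and 4.84 against 3.19 and 3.02. Of 14 hypoxia response genes outside glycolysis, limma called 0, with a median of 0.04.

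Markers of other cells moved with the same split. Acinar markers were called lower in number 2 in 12 of the 12 compared (median -2.15). Called higher were 3 of 10 beta cell markers, 3 of 6 alpha cell markers and 2 of 4 delta, PP and epsilon cell markers. Among all genes, 10.1% were called higher and 10.6% lower. The other markers of these islet cell lists were not called and did not all rise. Gcg lay at -0.04, Gc at -0.48 and Ucn3 at -0.25, so no change of a cell type is read from these counts. The endothelial markers, of which 2 of 6 were lower, summed to 82.1 and 105 FPKM in number 1 and 64.8 and 78.5 in number 2. Of the duct and of the Schwann and neuron markers 1 of 3 each was lower, and of the stellate and macrophage markers 0 were called. The part of these cells in the members' differences was not tested.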

How the data were processed

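The authors deposited 1 table of FPKM per gene and library with the gene lengths used. HTSeq 0.6.0 and GRCm38 are named in the submitters' processing notes; aligner, strand setting and treatment of reads with several matches are not given in the sources used here. Reads were recovered as whole multiples of 1 step per library (100% of values above 0 whole within 0.001). Genotype, and separately library number, was tested in limma 3.58.1 under R 4.3.3 (functions lmFit and eBayes, the latter fitted with a trend) on log2(FPKM + 1) over genes of at least 1 FPKM in at least 2 libraries, 2-sided, with Benjamini-Hochberg adjustment and a threshold of 0.05. Fold changes on this scale understate those of low genes. Only the main genotype fit was run on simulated data, with differences larger than the members' genotype differences, and the other fits were not. GENCODE M21 (GRCm38) gave transcripts, 50-base windows on both strands, GC content and 3′ UTRs. Members and lists were chosen with earlier results of these data known. All members are accounted for, with values for those that lead a family or step, passed the threshold or were among the 4 largest rises and 4 largest falls of a comparison; further genes are named if they are isozymes, passed the threshold or are extremes of their list. Alternatives were pseudocount 0.1, other filters, 2 rescalings, voom with factors from a trimmed mean of M values, the replicate block, removal of a GC curve, other lengths and leaving out each library. Some isozymes outside the list are not reported here.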

Additional observations from a re-analysis of the deposited data

How the results depend on the processing

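With 2 libraries per group, only large differences could pass, and at this depth 1 read of a 1 kilobase gene is worth 0.0386 to 0.0476 FPKM. In the genotype comparison 0 members were called in the main test and all 13 alternatives, with a lowest adjusted p of 0.135 (Gapdh, voom with the block). The numbers pair the libraries by no label, but deviations of same-numbered libraries from their genotype means correlated across genes (r = 0.78, genes being no independent replicates). With library number as a replicate block limma called 0 genes, and voom called 107, or 71 with the GC curve removed, with 0 members among them. At an unadjusted p under 0.05 these fits held 2 of 35 members beside 1360 of 12716 genes, 8 beside 1954, and 4 beside 800 of 12705. The 8 in voom with the block were Gapdh, Ogdh, Pcx, Pfkl, Pfkm, Pgk1, Sucla2 and Suclg2, with adjusted p of 0.135 to 0.305 there. The members' median of 0.030 was -0.048 when rescaled without Ins2, Ins1 and Iapp, and -0.049 to 0.088 with 1 library left out. Between library numbers, 8 members were called lower and 1 higher. With no filter on low values 0 and 0 were called (274 genes in all), after rescaling without Ins2, Ins1 and Iapp 4 and 3 (median 0.079), and in voom, with a genotype term and the GC curve taken out, 14 and 4 (5109 genes). With 1 library left out, 3 to 6 members were lower and 0 higher, 835 to 1822 genes were called and the median was -0.099 to -0.046. Why the counts differ among these settings was not tested. Leaving out a library changes both how many and which libraries are compared. The share of the gene with the highest mean FPKM in its family or complex moved with the length used. As a share of reads and per length of the principal transcript (chosen after seeing the data) it was 40.9% and 48.3% for Pfkm, 69.8% and 71.4% for Eno1, 98.4% and 98.6% for Pkm, 65.3% and 73.9% for Sucla2, 47.5% and 54.0% for Me2, 68.6% and 59.97% for Mdh1, 65.6% and 60.8% for Got2, 38.5% and 46.8% for Idh3g, and 66.7% and 73.0% for Ldhb. As a share of reads it was 98.8% for Pgam1.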

Other observations

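Levels of some of the further genes counted above are given here; these genes were chosen after their values were seen, and limma called 0 of those compared, which leaves out Pck1, in either comparison (the lowest adjusted p was 0.0734, for Sdhc between library numbers). Of the succinate dehydrogenase genes, which link the cycle to respiration, Sdhd lay at 87.8 and 98.2 FPKM in wild-type islets against 78.7 and 88.4 in transgenic ones, Sdha at 49.7 to 55.8, and Sdhb and Sdhc at 18.6 to 26.0. Ogdhl, a relative of Ogdh, lay at 26.7 to 34.0 FPKM, beside 20.5 to 34.4 for Ogdh. Pck2, the mitochondrial phosphoenolpyruvate carboxykinase, lay at 15.3 and 15.2 against 17.4 and 17.5, while Pck1, the cytosolic one, had at most 0.011 FPKM. Acly, which splits exported citrate, lay at 170 and 219 against 212 and 227 FPKM, above every member.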
